A study of Mus musculus with 4 samples.

Results

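Chromatin accessibility was examined at 9 mouse genes for secreted antagonists of Wnt signalling: Sfrp1, Sfrp2, Sfrp4, Sfrp5 and Frzb of the Frizzled-related family, Wif1, and the Dickkopf genes Dkk1, Dkk2 and Dkk3. The deposited 300-bp windows were merged where they lay up to 100 bp apart, and the window with the highest count summed over all libraries stood for each region. A region was assigned to the protein-coding gene that its best window's midpoint overlaps, or else to the nearest within 100000 bp. This gave the 9 genes 79 of 110110 regions. Which gene such a region controls cannot be read from distance. The 9 genes were listed with earlier results of these libraries known, among them the Sfrp1 region with the largest rise described below. The values of that region, and the counts and shares that include Sfrp1, are therefore a description and support nothing further.

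The cells were fibroblastic reticular cells, the fibroblasts that build the scaffold of lymph nodes, sorted as podoplanin-positive cells with high BP3 and without CD31 or CD45. In the Notch2_cKO group the mice carried Ccl19-Cre and floxed Notch2 alleles, whereas the control group had floxed Notch2 and no Cre. Both groups share the floxed alleles and the C57BL/6 background, and all mice are labelled female and 12 weeks old. Each group had 2 libraries, each from 50000 cells pooled from 6 mice, and the nodes were brachial, axillary and inguinal. Deletion is limited to cells in which Ccl19-Cre was active, and because only the Notch2_cKO mice carried Cre, effects of Cre and of Notch2 loss cannot be told apart.

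Over the best windows of all regions, Notch2_cKO libraries 1 and 2 held 30260067 and 12340742 counts, and control libraries 1 and 2 held 23629588 and 25740366. ATAC-seq inserts sequencing adapters into open DNA, so a higher count means a more accessible site. Levels are given as normalized CPM, counts scaled to the depth of each library after a loess adjustment on level, and changes as log2(Notch2_cKO/control) with a standard error (SE) that is approximate. The test was edgeR's quasi-likelihood test with Benjamini-Hochberg adjustment over all regions, and passing means an adjusted p under 0.05. Of 14 reticular cell marker genes 12 had regions, 140 in all. Of these regions 12 were higher (8.57%) and 16 lower (11.4%) in Notch2_cKO, against 12.4% and 11.3% of all regions. No region was assigned to Ccl19 or Ccl21a, so their accessibility was not assessed. For the genes that mark the sort, the region at an end of Bst1, which encodes BP3, had 29.4 and 29.7 CPM in Notch2_cKO and 31.4 and 32.6 CPM in control. That at an end of Pdpn, which encodes podoplanin, had 13.7 and 13.6 CPM in Notch2_cKO and 10.7 and 13.0 CPM in control (log2 0.20, adjusted p = 0.355). The region nearest an end of Pdgfra, at 2372 bp, rose (log2 0.64, adjusted p = 0.00553). Control library 2 went against its female label: it held 221 counts at the Y-linked gene Ddx3y and 201 at Eif2s3y, and each of the other libraries held 0 at both genes. The main counts are therefore also given without control library 2. The Notch2 region nearest its low-coordinate end did not pass (log2 -0.14, SE 0.10, adjusted p = 0.34), and it does not check the deletion, since the labels do not say which part is floxed.

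Wnt proteins are secreted ligands that bind Frizzled receptors together with LRP co-receptors, which stabilises beta-catenin and switches on TCF target genes. Secreted Frizzled-related proteins carry a cysteine-rich domain like that of Frizzled and bind Wnt outside the cell, as does Wif1 through a domain of its own. Dickkopf proteins instead act on the LRP co-receptors, with Dkk3 as a divergent member whose part in the pathway is less clear.

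The sequences before transcript starts of Frzb, Sfrp2, Wif1 and Dkk1 are shown because Frzb, Sfrp2 and Wif1 had an accessible region over them and Dkk1 did not. RefSeq promoters (GRCm38.p6, the assembly of mm10) were matched for 6 of the 9 genes, and the 250 bases before the start in that table are printed 5′ to 3′ on the gene's strand. For Sfrp2 this start lies inside the gene span given below, not at its low-coordinate end. They lie at chr2:80447397-80447646 on the minus strand (Frzb), chr3:83766071-83766320 on the plus strand (Sfrp2), chr10:121033754-121034003 on the plus strand (Wif1) and chr19:30549497-30549746 on the minus strand (Dkk1). Capitals mark TGGGAA, the core recognised by RBPJ, the DNA-binding partner of Notch, and CTTTGA, a core recognised by TCF factors, each searched on both strands, and the matches do not overlap.
Frzb: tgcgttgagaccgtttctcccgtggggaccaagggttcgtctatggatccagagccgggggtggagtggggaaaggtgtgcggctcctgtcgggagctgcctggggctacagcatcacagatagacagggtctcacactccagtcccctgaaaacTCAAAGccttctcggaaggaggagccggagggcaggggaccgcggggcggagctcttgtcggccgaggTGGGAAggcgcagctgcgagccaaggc
Sfrp2: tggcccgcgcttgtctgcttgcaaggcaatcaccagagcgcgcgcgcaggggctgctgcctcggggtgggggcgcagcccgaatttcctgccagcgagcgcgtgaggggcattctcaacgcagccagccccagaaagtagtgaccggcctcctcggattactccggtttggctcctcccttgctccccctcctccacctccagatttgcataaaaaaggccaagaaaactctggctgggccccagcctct
Wif1: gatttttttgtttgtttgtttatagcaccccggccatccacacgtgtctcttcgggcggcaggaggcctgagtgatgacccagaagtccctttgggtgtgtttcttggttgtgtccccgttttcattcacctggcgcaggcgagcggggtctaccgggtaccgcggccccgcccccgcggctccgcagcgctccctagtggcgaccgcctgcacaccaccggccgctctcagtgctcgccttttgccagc
Dkk1: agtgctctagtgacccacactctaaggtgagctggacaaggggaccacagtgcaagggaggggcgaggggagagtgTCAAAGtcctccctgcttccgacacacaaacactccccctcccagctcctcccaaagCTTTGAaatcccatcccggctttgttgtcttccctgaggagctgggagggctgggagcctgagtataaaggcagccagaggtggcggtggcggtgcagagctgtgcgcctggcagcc
Frzb held 1 RBPJ core and 1 TCF core, Dkk1 held 2 TCF cores, and Sfrp2 and Wif1 held neither. Of 32851 RefSeq promoter windows of this length, 21.6% held the RBPJ core and 13.8% the TCF core. The windows were richer in G and C (64.4% in Frzb, 63.6% in Sfrp2, 62.8% in Wif1 and 60.8% in Dkk1) than the median promoter window (52.4%). CpG pairs numbered 16 in Frzb, 16 in Sfrp2 and 21 in Wif1, against 6 in Dkk1 and in the median window. The windows of Sfrp5 and Dkk2, not printed and also without a region over them, held 13 and 7 CpG pairs.

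At the 9 genes, 21 of 79 regions were higher in Notch2_cKO and 2 were lower, while 56 did not pass. The higher ones made up 26.6% of the members, against 12.4% of all regions, and the lower ones 2.53%, against 11.3% of all regions. Sfrp1 held 12 of the higher regions, Sfrp2 held 4, Frzb and Dkk3 held 2 each and Sfrp4 held 1. The 2 lower regions were assigned to Wif1 and Dkk2, and no region of Dkk1 or Sfrp5 passed. More cells with an open site and more open DNA per cell cannot be told apart in these bulk libraries. Without Sfrp1, 9 of 57 regions were higher (15.8%) and 2 lower (3.51%), so that the share of higher regions was close to that of all regions.

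The log2 change was above 0 at 55 of the 79 regions, where 50.6% of all regions were above 0. Both Notch2_cKO libraries lay above both controls at 44 of the 79 regions, where 30.0% of all regions did so, and below both at 14, where 29.8% did. The median log2 change was 0.27 over the members and 0.01 over all regions. By family, 19 of 46 regions at the Frizzled-related genes were higher (41.3%) and 0 lower (median log2 0.45), and 12 of these 19 belong to Sfrp1. At the Dickkopf genes 2 of 25 regions were higher (8.0%) and 1 lower (4.0%, median log2 -0.06). Among all regions 12.4% were higher and 11.3% lower. At an unadjusted p under 0.05, 1 Frizzled-related region was lower with edgeR, and none was called lower by DESeq2 or limma-voom. Without control library 2, 13 Frizzled-related and 2 Dickkopf regions were higher. The difference between the families was not tested. Leaving out 1 library gave 16 higher regions without Notch2_cKO library 1, 23 without Notch2_cKO library 2, 16 without control library 1 and 15 without control library 2, where 8.04% of all regions were higher and 7.47% lower. Lower regions numbered 1, 4, 2 and 1 in the same order, and DESeq2's Wald test called 13 higher and 1 lower.

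**Figure D1:**
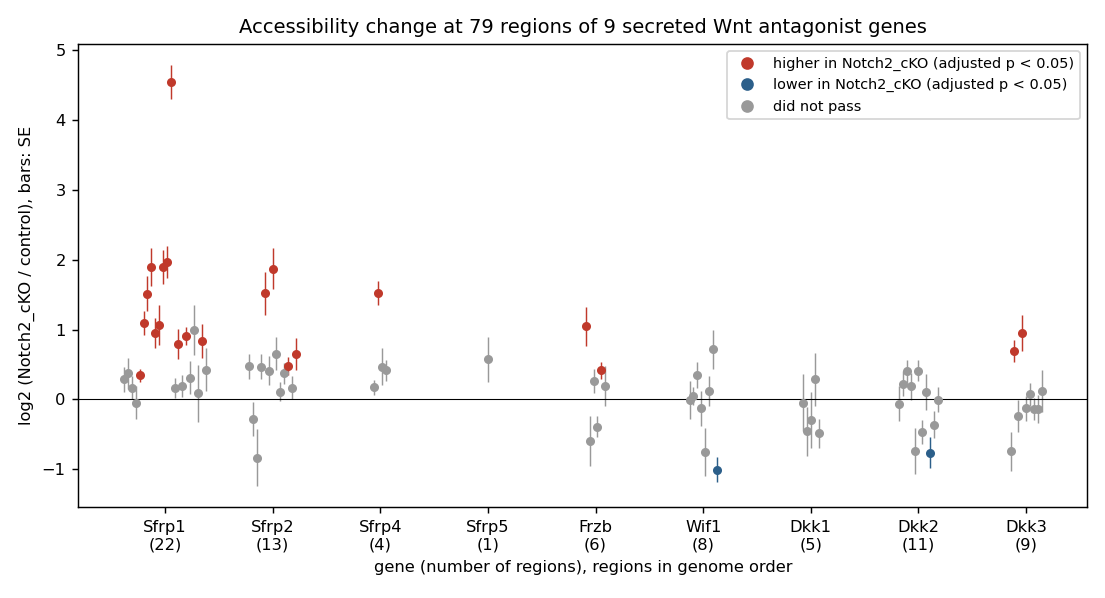
Log2 change in accessibility (Notch2_cKO over control, y axis, bars are the SE) at each of the 79 regions, grouped by gene and in genome order within a gene (x axis), with 2 libraries per group. Red points passed as higher and blue points as lower in Notch2_cKO; the changed points at Sfrp1, Sfrp2, Sfrp4 and Frzb all lie above 0, and the blue ones belong to Wif1 and Dkk2.

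Sfrp1 encodes a secreted Frizzled-related protein that binds Wnt proteins. The gene spans 23411383 to 23449632 on chromosome 8, and its 22 regions reach to 66983 bp below its low-coordinate end and 84668 bp above its high-coordinate end. Of these regions, 12 rose in Notch2_cKO and none fell, with a median log2 change of 0.82. The count of lower Sfrp1 regions was also 0 at an unadjusted p under 0.05 in edgeR, with DESeq2 and with limma-voom. The changes were placed unevenly along the locus. None of the 4 regions below the gene passed (median log2 0.23), all 4 inside it rose, and 8 of the 14 above it rose.

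**Figure D2:**
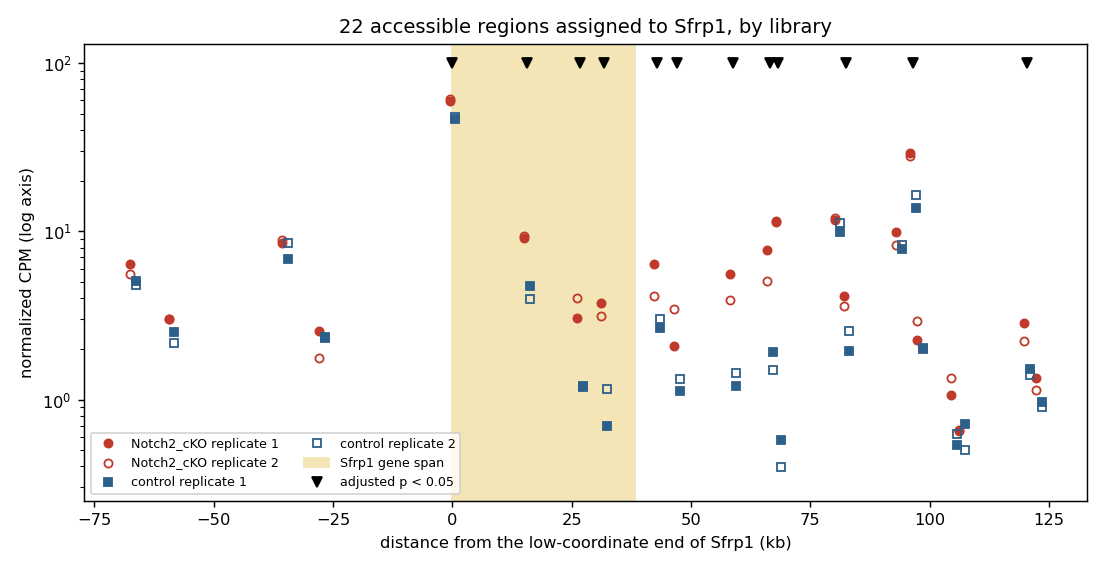
Normalized CPM (log axis) of the 22 regions assigned to Sfrp1 in each library, by distance from the gene's low-coordinate end in kb, with Notch2_cKO points drawn slightly to the left and control points slightly to the right of the true position. The shaded band is the gene and triangles mark the 12 regions that passed; left of the gene the groups lie close together, and within and right of it the Notch2_cKO points lie above the controls at most positions.

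The most open member region lay over the low-coordinate end of Sfrp1 (23411101 to 23411700), at a level above 97.2% of all regions when averaged over the groups. It had 59.3 and 61.3 CPM in Notch2_cKO and 46.5 and 48.1 CPM in control. The groups did not overlap, and the region passed with a small rise (log2 0.35, SE 0.09, adjusted p = 0.00967). The call was lost without control library 1 (adjusted p = 0.208) and without control library 2 (adjusted p = 0.137). With TMM factors the rise was 0.19 on the log2 scale and did not pass.

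From this end onward 9 neighbouring regions in a row rose, over a stretch of 68900 bp that ended at 23480000. The last of them, 30068 bp above the gene (23479401 to 23480000), showed the largest rise of all members and ranked sixth by p among all regions. It had 349 and 149 counts in Notch2_cKO libraries 1 and 2, against 13 and 10 in control libraries 1 and 2. In normalized terms these were 11.3 and 11.5 CPM in Notch2_cKO and 0.578 and 0.395 CPM in control (log2 4.55, SE 0.24, adjusted p = 7.12e-10). By mean level the site was among the least open 2.53% of all regions in control, whereas in Notch2_cKO its level was above 79.8% of them. Its next neighbour, Zmat4, lay 167626 bp away.

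The 7 windows of this site overlap, being spaced by 50 bp, so they share most of their counts and their values are a description of 1 signal. Each of them held between 229 and 349 counts in Notch2_cKO library 1 and between 115 and 149 in Notch2_cKO library 2. The controls held between 8 and 13 counts in library 1 and between 5 and 12 in library 2. In every window the lower Notch2_cKO value was at least 17.3 times the higher control value after scaling. Leaving out any library gave log2 changes between 4.28 and 4.82, and the call held in each case.

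**Figure D3:**
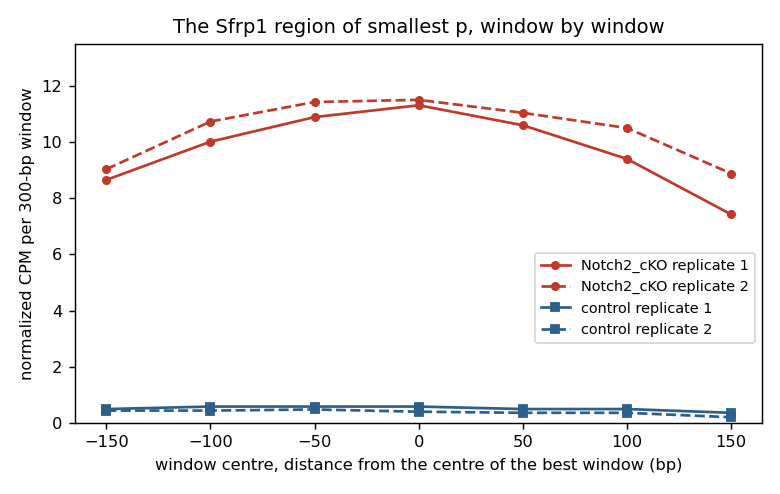
Normalized CPM of the 7 overlapping 300-bp windows (y axis) in the Sfrp1 region of smallest p, by the distance of each window's centre from that of the best window in bp (x axis), with 1 line per library. Both Notch2_cKO lines form a low dome that peaks near 11 CPM, and both control lines stay under 1 CPM.

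Next to it, at 23477701 to 23478200, another site 28318 bp above Sfrp1 had 7.75 and 5.08 CPM in Notch2_cKO, against 1.91 and 1.51 CPM in control (log2 1.97, SE 0.23, adjusted p = 4.92e-06). The site 20618 bp above the gene (23469951 to 23470550) had 5.56 and 3.92 CPM in Notch2_cKO and 1.20 and 1.43 CPM in control (log2 1.89, SE 0.24, adjusted p = 1.06e-05). At both sites the lower Notch2_cKO library stood well above the higher control. Closer to the gene the rises were smaller. The sites 4618 and 8768 bp above it had log2 changes of 0.95 (SE 0.21) and 1.06 (SE 0.28). The first lost its call without Notch2_cKO library 1 (adjusted p = 0.168) and the second without Notch2_cKO library 2 (adjusted p = 0.0637).

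Inside Sfrp1, away from its low-coordinate end, 3 regions rose. The site at 23442951 to 23443500 had 3.73 and 3.14 CPM in Notch2_cKO and 0.700 and 1.16 CPM in control (log2 1.90, SE 0.27, adjusted p = 3.67e-05). The site at 23438051 to 23438350 had 3.07 and 3.99 CPM in Notch2_cKO, against 1.18 and 1.20 CPM in control (log2 1.52, SE 0.25, adjusted p = 0.000165). All 4 libraries were more open at the site from 23426601 to 23427200, with 9.17 and 9.37 CPM in Notch2_cKO and 4.75 and 3.95 CPM in control (log2 1.09, SE 0.17, adjusted p = 0.000101). None of these 3 sites had overlapping groups, and all 3 kept their calls whichever library was left out.

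Further above the gene, some sites rose and others did not pass. The strongest distal site of the locus, 58218 bp above it (23507451 to 23508150), had 29.1 and 27.9 CPM in Notch2_cKO and 13.8 and 16.5 CPM in control (log2 0.91, SE 0.13, adjusted p = 3.49e-05). In contrast, the site 42468 bp above the gene had 11.8 and 12.0 CPM in Notch2_cKO, against 9.97 and 11.2 CPM in control (log2 0.17, SE 0.15, adjusted p = 0.457). The site 55318 bp above the gene likewise did not pass (log2 0.19, SE 0.16). Sites at 44318 and 82218 bp rose by log2 0.80 (SE 0.22) and 0.84 (SE 0.25). Both lost their calls without Notch2_cKO library 1 (adjusted p = 0.0979 and 0.293). The first also lost it without control library 1 (adjusted p = 0.134), and the second without control library 2 (adjusted p = 0.111).

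Of the 12 rises at Sfrp1, 7 kept their calls with each library left out in turn. The number of Sfrp1 regions called higher ranged from 9 to 11 in these fits, with 10 without control library 2. Within 500000 bp of the gene, 36 regions were not assigned to Sfrp1, of which 5 were higher (13.9%) and 4 lower (11.1%, median log2 0.12). Among all regions these shares were 12.4% and 11.3%. Among the 742 genes with 20 or more regions, 3 had at least Sfrp1's share of higher regions (54.5%), Sfrp1 included. Since Sfrp1 was listed with a rise there already known, this place is a description only. By Euclidean distance over 4 libraries of log2 CPM, the sites most like the Sfrp1 region of smallest p lay inside Cobll1 (distance 0.824), 58378 bp from Rab10 (0.888) and inside Mettl24 (0.940).

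Sfrp2, another Wnt-binding antagonist of the family and widely expressed by fibroblasts, spans 83765750 to 83774314 on chromosome 3, on the plus strand. It had 13 regions, of which 4 rose, 0 fell and 9 did not pass (median log2 0.47). Both clear rises were at sites that were barely open in control, upstream of the gene. Windows were chosen on counts summed over both groups, so the low control level of such sites is a description. The site 9950 bp upstream (83755551 to 83756050) had 67 and 32 counts in Notch2_cKO and 14 and 16 in control, which came to 2.22 and 2.44 CPM in Notch2_cKO and 0.60 and 0.65 CPM in control (log2 1.87, SE 0.30, adjusted p = 0.000112). The site 25300 bp upstream (83740101 to 83740650) had 2.16 and 1.67 CPM in Notch2_cKO and 0.810 and 0.572 CPM in control (log2 1.52, SE 0.31, adjusted p = 0.00128). Both kept their calls with each library left out.

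Over the printed Sfrp2 start sequence (region 83765951 to 83766600) the level was 15.5 and 11.8 CPM in Notch2_cKO and 10.3 and 11.2 CPM in control. The groups did not overlap, but they lay close and the region did not pass (log2 0.37, SE 0.15, adjusted p = 0.0881). The most open Sfrp2 region lay 15786 bp beyond the gene's end, within the pseudogene Gm7115, with 22.2 and 25.0 CPM in Notch2_cKO and 17.1 and 16.5 CPM in control (log2 0.48, SE 0.13, adjusted p = 0.00903). It lost its call without control library 1 (adjusted p = 0.0802) and without control library 2 (adjusted p = 0.139). A weaker site 30686 bp beyond the gene's end, also within Gm7115, passed narrowly (log2 0.65, SE 0.23, adjusted p = 0.0481) and in no fit with a library left out. That weaker site lay nearly as close to another gene, Tlr2, at 31272 bp. The surroundings of Sfrp2 leaned the same way: of 84 other regions within 500000 bp, 19 were higher (22.6%) and 4 lower (4.76%, median log2 0.24). Among all regions these shares were 12.4% and 11.3%. Whether the Sfrp2 rises are separate from those of the surroundings was not tested.

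Sfrp4, a family member made in bone and connective tissue, spans 19623175 to 19632825 on chromosome 13 and had 4 regions. The site that rose lay inside the gene (19626351 to 19627000), with 335 and 158 counts in Notch2_cKO and 97 and 93 in control. Its levels were 10.8 and 12.3 CPM in Notch2_cKO and 4.31 and 3.67 CPM in control (log2 1.52, SE 0.17, adjusted p = 2.80e-06). The call held with each library left out, with log2 changes from 1.40 to 1.63. At the gene's low-coordinate end, 3270 bp from the neighbouring gene Epdr1, the most open Sfrp4 region had 37.1 and 37.9 CPM in Notch2_cKO and 32.4 and 34.0 CPM in control and did not pass (log2 0.17, SE 0.10, adjusted p = 0.257). At this end the groups lay close together, although they did not overlap.

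Frzb, also called Sfrp3 and known from cartilage, spans 80411970 to 80447396 on chromosome 2, on the minus strand. It had 6 regions, of which 2 rose and 0 fell. The region over the printed Frzb start sequence (80447201 to 80447650) had 27.4 and 23.8 CPM in Notch2_cKO and 19.0 and 19.6 CPM in control (log2 0.42, SE 0.12, adjusted p = 0.0188). The call was lost without Notch2_cKO library 1 (adjusted p = 0.104), control library 1 (0.207) or control library 2 (0.153), and it held without Notch2_cKO library 2 (0.000187). Past the gene's end, at 27320 bp, lay a weak site that was nearly as close to another gene, Dnajc10, at 30595 bp. This site had 2.42 and 1.83 CPM in Notch2_cKO and 1.21 and 0.930 CPM in control (log2 1.05, SE 0.28, adjusted p = 0.00923). It lost its call without Notch2_cKO library 1 (adjusted p = 0.220) and control library 2 (0.0906). A well open site inside the gene (80435101 to 80435650) had 9.06 and 8.42 CPM in Notch2_cKO, against 11.9 and 11.2 CPM in control, and did not pass (log2 -0.39, SE 0.15, adjusted p = 0.063). The 43 other regions within 500000 bp held 2 higher (4.65%) and 10 lower (23.3%), against 12.4% and 11.3% of all regions.

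Sfrp5, an antagonist best known from adipose tissue and on chromosome 19, had 1 region, 15398 bp from the gene. That site had 1.54 and 0.981 CPM in Notch2_cKO and 0.971 and 0.826 CPM in control and did not pass (log2 0.58, SE 0.32, adjusted p = 0.218). Its unadjusted p was above 0.05 in edgeR as well, DESeq2 and limma-voom did not call it, and no region covered the start of Sfrp5.

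**Figure D4:**
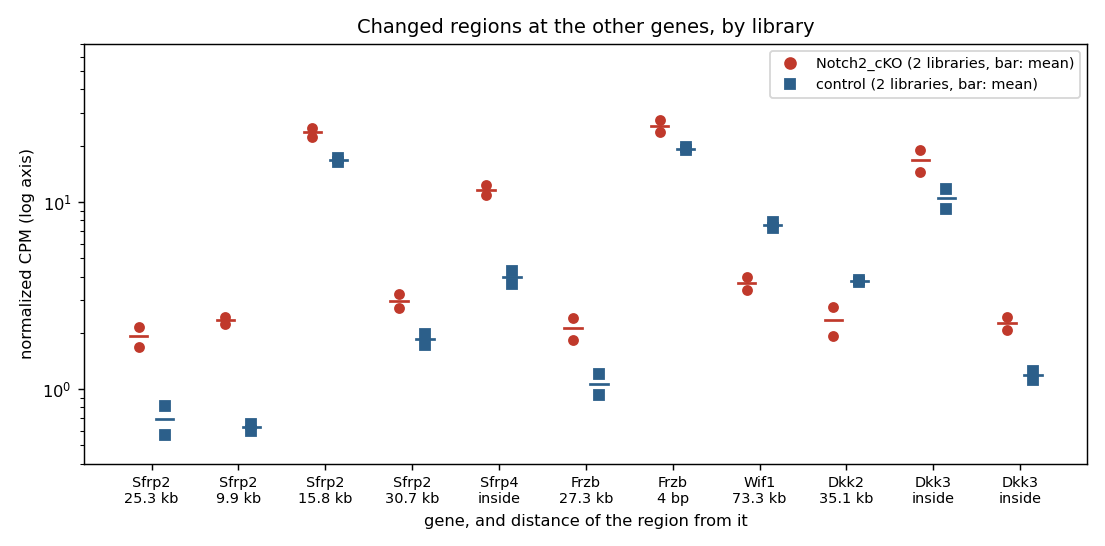
Normalized CPM (log axis) in each library for the 11 changed regions of the genes other than Sfrp1, with a bar at each group's mean and the distance of the region from its gene on the x axis. Notch2_cKO points lie above control points at the sites of Sfrp2, Sfrp4, Frzb and Dkk3 and below them at the Wif1 and Dkk2 sites.

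Wif1 binds Wnt proteins directly and spans 121034004 to 121100642 on chromosome 10, on the plus strand. Over its printed start sequence (121033301 to 121034200) it had 19.6 and 23.7 CPM in Notch2_cKO and 20.2 and 21.1 CPM in control. The groups overlapped and the region did not pass (log2 0.05, SE 0.13, adjusted p = 0.834), with a log2 change of -0.074 without Notch2_cKO library 2. Far beyond the gene's end, at 73308 bp (121173651 to 121174300), a site fell in Notch2_cKO. It had 3.96 and 3.39 CPM in Notch2_cKO, against 7.30 and 7.79 CPM in control (log2 -1.01, SE 0.18, adjusted p = 0.000326). Another gene, Tbc1d30, lay 89869 bp from this site. The call held with each library left out, between -1.13 and -0.92 on the log2 scale. The other 7 regions of Wif1 did not pass. In its surroundings, 16 of 73 other regions within 500000 bp were lower (21.9%) and 7 higher (9.59%). Among all regions 11.3% were lower and 12.4% higher.

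The Dickkopf genes had 25 regions. Dkk2, which can hinder or aid Wnt signalling depending on its partners, spans 132085266 to 132180304 on chromosome 3 and had 11 regions, of which 1 fell and 10 did not pass. The lower site, 35096 bp beyond the gene's end (132215151 to 132215750), had 1.92 and 2.77 CPM in Notch2_cKO, against 3.72 and 3.82 CPM in control (log2 -0.76, SE 0.22, adjusted p = 0.0175). It lost its call without Notch2_cKO library 1 (adjusted p = 0.328) and without control library 2 (adjusted p = 0.0702). The most open Dkk2 site, inside the gene (132168751 to 132169400), had 12.3 and 11.6 CPM in Notch2_cKO and 8.29 and 9.75 CPM in control and missed the threshold (log2 0.41, SE 0.15, adjusted p = 0.055). It passed with TMM factors (log2 0.44). The site nearest the start of Dkk2 lay 1066 bp upstream and did not pass (log2 0.22, SE 0.18, adjusted p = 0.408).

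Dkk3 spans 112116019 to 112159482 on chromosome 7 and had 9 regions, of which 2 rose, both inside the gene. The more open of them (112138551 to 112139200) had 19.0 and 14.6 CPM in Notch2_cKO and 9.19 and 11.8 CPM in control (log2 0.70, SE 0.16, adjusted p = 0.00337), and it lost its call without control library 1 (adjusted p = 0.0922). The other (112147851 to 112148500) had 2.44 and 2.07 CPM in Notch2_cKO and 1.12 and 1.25 CPM in control (log2 0.95, SE 0.26, adjusted p = 0.0113). Without Notch2_cKO library 1 (adjusted p = 0.172) or control library 1 (0.0658) its call was lost. The Dkk3 region nearest an end of the gene had 8.96 and 7.38 CPM in Notch2_cKO and 7.19 and 8.56 CPM in control, so the groups overlapped (log2 0.08, SE 0.17, adjusted p = 0.794).

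Dkk1, the classical LRP antagonist, spans 30545876 to 30549496 on chromosome 19, on the minus strand. None of its 5 regions passed, and none lay over the start sequence shown above. The nearest, 5204 bp upstream, was also the most open, with 2.63 and 3.15 CPM in Notch2_cKO and 4.13 and 3.78 CPM in control (log2 -0.48, SE 0.21, adjusted p = 0.0973). The groups did not overlap there, and it was the 1 Dkk1 region with an unadjusted p under 0.05 in edgeR, while DESeq2 and limma-voom called none. The other 4 regions of Dkk1 were weak, none with a mean level above 1 CPM. The farthest, 94876 bp away, was the member just inside the distance limit, at 1.07 and 0.372 CPM in Notch2_cKO and 0.699 and 1.00 CPM in control. The closest site past the limit with no gene of its own lay 109166 bp from Dkk2, at 9.58 and 10.6 CPM in Notch2_cKO and 13.6 and 16.1 CPM in control.

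The members were also counted by position and level, against a background of 12.4% higher and 11.3% lower among all regions, and differences between these counts were not tested. Of the 5 regions within 1000 bp of a gene end, 2 rose, each by less than 0.5 on the log2 scale. Within 10000 bp of a gene 11 of 38 regions were higher and 0 lower, and beyond it 10 of 41 were higher and 2 lower. The members' median level was 3.06 CPM, against 3.43 CPM over all regions, and their median width was 600 bp, the same as over all regions.

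The rest of the Wnt pathway was counted by lists of genes whose regions were assigned in the same way. Fewer of all regions passed in either direction without control library 2, as given above. The list counts from that fit are to be read against its own shares, not those of the main fit. Together the 7 lists had 731 regions at 86 of 87 genes, of which 104 were higher (14.2%) and 69 lower (9.44%), against 12.4% and 11.3% of all regions. Without control library 2 these were 61 and 35. Other extracellular inhibitors had 8 higher and 0 lower of 45 regions (median log2 0.15; 1 lower at an unadjusted p under 0.05 in edgeR, 0 with DESeq2 and limma-voom), and 6 were higher without control library 2. Among them a site 32930 bp from Tpbg, which encodes a membrane inhibitor of Wnt, had 7.65 and 6.46 CPM in Notch2_cKO and 1.92 and 1.15 CPM in control (log2 2.24, SE 0.23, adjusted p = 9.89e-07). Inside Apcdd1, which encodes another membrane inhibitor, a site rose by log2 1.86 (SE 0.21). In the main fit 17.8% of the regions of these other inhibitors were higher, against 12.4% of all regions.

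Wnt ligand genes had 18 higher and 6 lower of 115 regions (median log2 0.17), or 5 and 4 without control library 2, led by a site inside Wnt5b with 4.07 and 4.38 CPM in Notch2_cKO and 1.15 and 1.12 CPM in control (log2 1.88, SE 0.23). Receptor and co-receptor genes had 39 higher and 15 lower of 197 (median log2 0.04), or 25 and 9 without control library 2. The site of smallest p in that list lay inside Ror2, a receptor for Wnt5a, with 11.7 and 12.1 CPM in Notch2_cKO and 4.93 and 3.63 CPM in control (log2 1.48, SE 0.17). R-spondins, which amplify Wnt signals, and their receptors and ligases had 8 higher and 11 lower of 72 (median log2 -0.01), or 3 and 8 without control library 2. There a site 26356 bp from Rspo2 fell, with 3.14 and 4.27 CPM in Notch2_cKO and 12.2 and 9.98 CPM in control (log2 -1.64, SE 0.19). Sites 20233 bp from Rspo3 (log2 0.89, SE 0.18) and 89070 bp from Lgr5 (log2 1.24, SE 0.25) rose. In the main fit the shares higher and lower were 15.7% and 5.22% for ligands and 19.8% and 7.61% for receptors. For the R-spondin list they were 11.1% and 15.3%, and for all regions 12.4% and 11.3%.

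Downstream of the receptors regions passed in both directions, with shares to be read against 12.4% higher and 11.3% lower among all regions. Shares higher and lower were 4.92% and 11.5% for intracellular components and 11.3% and 12.8% for TCF factors with their nuclear partners. For common Wnt target genes they were 10.2% and 11.7%. Intracellular components had 3 higher and 7 lower of 61 regions (median log2 0.06), or 1 and 2 without control library 2, and TCF factors with their nuclear partners had 16 higher and 18 lower of 141 (median log2 -0.05), or 9 and 7 without it. In that second list a site 21667 bp from the corepressor gene Tle4 rose, with 22.7 and 22.3 CPM in Notch2_cKO and 4.94 and 6.06 CPM in control (log2 2.03, SE 0.15, adjusted p = 3.48e-08). A site 24703 bp from Tle3 in the same list fell (log2 -1.40, SE 0.28). Common Wnt target genes had 14 higher and 16 lower of 137 (median log2 0.02), or 13 and 8 without control library 2, and a site 57781 bp from Cd44, which encodes a hyaluronan receptor, fell (log2 -2.13, SE 0.20). Among the target genes a site 78389 bp from Myc rose (log2 1.15, SE 0.17). The sites named from these lists at Tpbg, Apcdd1, Wnt5b, Ror2, Rspo2, Tle4 and Cd44 kept their calls with each library left out in turn. Those at Rspo3, Lgr5, Tle3 and Myc kept theirs as well. Differences between these lists were not tested.

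**Figure D5:**
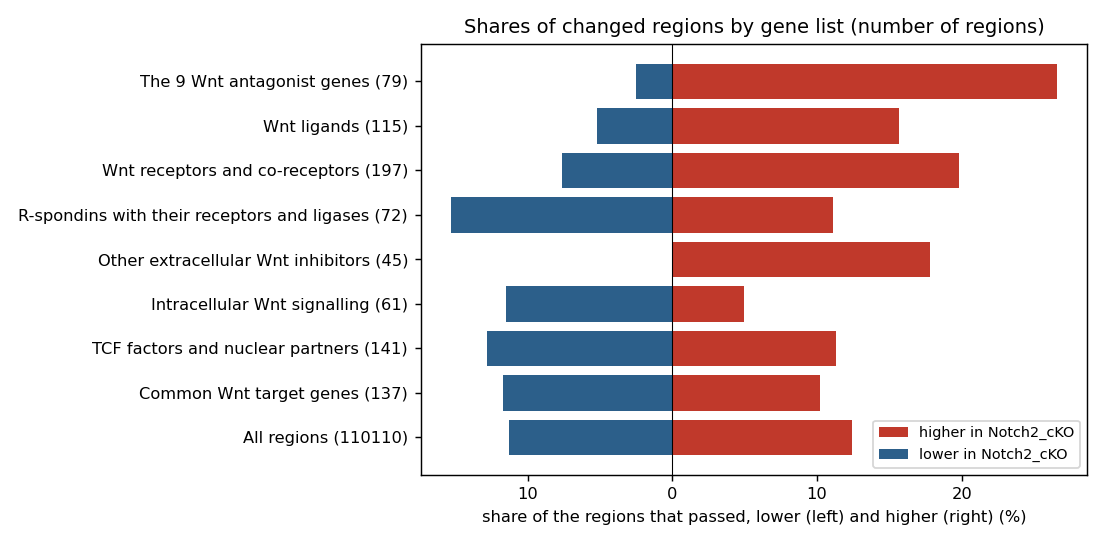
Share of regions in percent that passed as higher (red, right) and as lower (blue, left) in Notch2_cKO, for the 9 Wnt antagonist genes, 7 further lists of Wnt pathway genes and all regions, with the number of regions in brackets. The antagonist genes have 26.6% higher and 2.53% lower regions, against 12.4% and 11.3% of all regions.

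Markers of other cell types that a sort can hold were counted beside these results, against 12.4% higher and 11.3% lower among all regions. Endothelial genes had 12 higher (14.8%) and 6 lower (7.41%) of 81 regions at 10 genes. Their summed level was 492 and 470 CPM in Notch2_cKO and 440 and 439 CPM in control. Their regions nearest a gene end rose at Tek (at 86 bp, log2 0.74, adjusted p = 0.000305) and Cdh5 (at 1987 bp, log2 0.82, adjusted p = 0.00228). That of Vwf, at 5829 bp, fell (log2 -0.93, adjusted p = 0.0389). The Vwf region was weak, with 0.87 and 0.68 CPM in Notch2_cKO and 1.31 and 1.77 CPM in control. Mural cell genes had 4 higher (7.02%) and 7 lower (12.3%) of 57 regions, with 421 and 432 CPM in Notch2_cKO and 442 and 439 CPM in control. At 4 of these 7 genes the region nearest an end fell. They were Notch3 (at 54 bp, log2 -0.85, adjusted p = 0.0015) and Mcam (at 4458 bp, log2 -0.79, adjusted p = 0.000404). The others were Acta2 (at 235 bp, log2 -0.48, adjusted p = 0.0253) and Myh11 (at 788 bp, log2 -0.43, adjusted p = 0.0103). Leukocyte genes had 0 higher and 2 lower (13.3%) of 15 regions at 6 of 10 genes. Their sums were 99.4 and 101 CPM in Notch2_cKO and 114 and 105 CPM in control. The part of these cell types in the changes at the antagonist genes was not tested.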

How the data were processed

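ATAC-seq libraries of 2 Notch2_cKO and 2 control pools were analysed. Per the submitters' processing notes, Bowtie2 2.4.5, Picard 2.27.5, SAMtools 1.14, deepTools, cutadapt and Trim Galore 0.6.7 were used, with mm10 as the build. Per the labels, window counts came from csaw. Neither the peak caller nor any read shift for the transposase is given in the sources used here. Although called loess-normalized in the labels, the deposited values are whole-number counts whose totals over 678058 overlapping windows range from 80428121 to 196562399. They were treated as counts without normalization.

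Of 110110 merged regions, 95449 had a gene among 21900 protein-coding RefSeq genes. A midpoint within several genes went to the gene with the nearest end. Loess offsets (span 0.3) were computed with limma 3.58.1, and edgeR 4.0.16 in R 4.3.3 fitted genotype alone, after a test on simulated data. The SE divides the size of the log2 change by the root of the test's F. No filter on level was applied beyond the deposited set of windows, so all 79 regions were tested. The best window was chosen on counts of both groups, so a site low in control can owe its choice to Notch2_cKO counts. Alternatives used DESeq2 1.42.0, limma-voom, other scalings, filters and windows, a replicate block and each library left out, where the group left with 1 library takes its spread from the other genotype. Figures used Python 3.11.15, pandas 2.3.3 and matplotlib 3.10.9.

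The members and lists were chosen with earlier results of these data known. Named for each gene are the changed region of smallest p in each direction, the most open one, that nearest a gene end and further changed ones, and for each pathway list up to 3 changed regions of smallest p whose groups do not overlap. For 2 against 2 libraries an exact two-sided permutation test cannot go below 0.333. Since the labels do not say that the pools came from separate experiments, p-values measure the spread between these libraries. No genome sequence was used here, so motifs were searched in RefSeq promoters alone.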

Additional observations from a re-analysis of the deposited data

How the results depend on the processing

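Of the 79 regions, 21 were called higher and 2 lower. These counts changed by over 1.5 times with DESeq2's Wald test (13 higher, 1 lower), within 10000 bp of a gene (11 higher, 0 lower, and 6 in place of 12 at Sfrp1) and at an adjusted p of 0.01 (1 lower). With each library left out, 15 to 23 were higher, 1 to 4 lower and 9 to 11 higher at Sfrp1. Over the other Wnt pathway genes the counts of 104 and 69 became 60 and 23 with DESeq2, and 61 to 126 higher and 35 to 73 lower with a library left out. TMM factors and DESeq2's size factors gave 25 higher and 2 lower members each, and limma-voom gave 20 and 2. Leaving out 1 library turned the direction of 2 named regions that had not passed: Wif1's start, between -0.074 and 0.22 on the log2 scale, and the Dkk3 region nearest a gene end, between -0.083 and 0.19.

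Deviations of same-numbered libraries from their group means correlated at -0.179 over regions, which gave no sign that the replicate numbers pair the libraries. With 2 libraries per group this value cannot show whether they were processed in pairs. With a replicate block 19 members were higher and 2 lower, and with crossed numbers, an alternative chosen after seeing the data, 31 and 5. Among 31 named regions and 399 refits, 350 kept direction and side of the threshold, 39 lost the call, 7 gained it and 3 changed direction. Of the 21 higher members 10, and of the 2 lower members 1, kept their calls with each library left out. Depth limits what could be seen at the weakest member, which held 57 counts over all libraries.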
